A study of Mus musculus with 24 samples.

Results

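Mammary tumour-derived transplants whose sample code carries a 0 after its letter were compared with those whose code carries F2, over genes with a high mean level. The 5 code 0 libraries (A0, F0, G0, H0 and L0) were set against 11 well-counted F2 libraries, so 16 of 24 libraries entered, and 8 F2 libraries with 5262 to 46603 counts were not used. The genes were chosen by their measured level: a mean of at least 5 log2 units over the 16 libraries kept 415 of 750 genes and left 335 below it. Just inside that limit stood Mmrn2 (5.004), Tyms (5.011) and Oasl1 (5.022), and just outside it F2rl1 (4.989), Map3k8 (4.977) and Pias4 (4.946). The libraries were likewise selected on their total counts, with FF2-2809 (107677 counts) just inside and GF2-2958 (46603 counts) just outside. Because the mean pools both groups, 15 of the 415 genes averaged below 5 in code 0 and passed through their F2 values. Hk2, Vhl, Brca2 and Tyms were among these 15. A further 11, with Mmrn2, Cd163, Adm and Tgfb2 among them, averaged below 5 in F2 and passed through their code 0 values. The other 389 reached 5 in both groups. The 415 genes are called well expressed below in this sense only.

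The series measured total RNA of mammary tumour transplants (mTDT in the labels) grown in BALB/c mice, by NanoString counting of colour-coded probes hybridised to each RNA without amplification. The labels give no genotype, age or treatment, they do not explain what 0 and F2 stand for, and they tie the code to the origin of the tumour. The code 0 libraries comprised 1 excluded (A0), 2 desert (F0, G0) and 2 inflamed (H0, L0) tumours by the immune infiltrate class in the labels. The F2 libraries comprised 2 excluded, 3 desert and 6 inflamed tumours. Letters A, F, G, H and L had 1 code 0 library each, and 2, 1, 2, 1 and 1 F2 libraries in that order, while letter C had 4 F2 libraries and no code 0 library. Within letters A and G, code 0 and F2 also differed in infiltrate class. Nothing in the labels says which libraries came from separate animals. The p-values below therefore measure the spread between these libraries only.

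Several of the genes described below belong to well-studied systems. Hexokinases trap glucose in the cell by phosphorylating it, the entry step of glycolysis, and the HK2 isoform is the one that many tumours carry at a high level and that hypoxia-inducible factors switch on. Growth factors and stress switch on immediate early genes such as Egr1, and phosphatases such as DUSP1 then dampen the MAP kinases that started the response. A transplanted tumour depends on vessels and fibroblasts of the host, whose RNA is measured together with that of the tumour cells.

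Depth differed between the groups. Code 0 libraries held 982205 to 1110314 counts (median 1090063) and the F2 libraries used held 107677 to 976271 (median 288067), so the ranges did not overlap. The mean of the 75 lowest genes, a measure of background, was -0.13 to 0.48 log2 units in code 0 and 0.02 to 2.31 in F2 libraries. Of the 415 genes, 0 to 1 had under 20 counts in a code 0 library and 0 to 20 in an F2 library. The pair AF2-2797-1 and AF2-2797-2 stood apart: the median of the 415 genes was 6.65 to 7.11 in code 0, 6.12 to 6.16 in this pair and 6.45 to 7.21 in the other 9 F2 libraries. Its members, which share a code number, differed by 2.23 in chi-square per degree of freedom, against 46.11 to 379.09 between other F2 libraries of one letter and different number. The pair CF2-2784 had 8.59. Over the 415 genes the libraries of each of these pairs correlated by 0.995, against 0.692 to 0.923 for libraries of different number. Differing by more than counting noise does not tell separate tumours from repeat measurements of 1 tumour, so whether n = 11 counts separate tumours is not known. The libraries were kept apart in the fit. Most list medians and some single genes are given with and without the AF2-2797 pair, and the other differences include it. Averaging libraries that share a code number left Hk2 as the one gene of the 415 that passed (difference -1.84, adjusted p = 0.0194), with Thy1 at 1.26 (adjusted p = 0.0596).

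**Figure D1:**
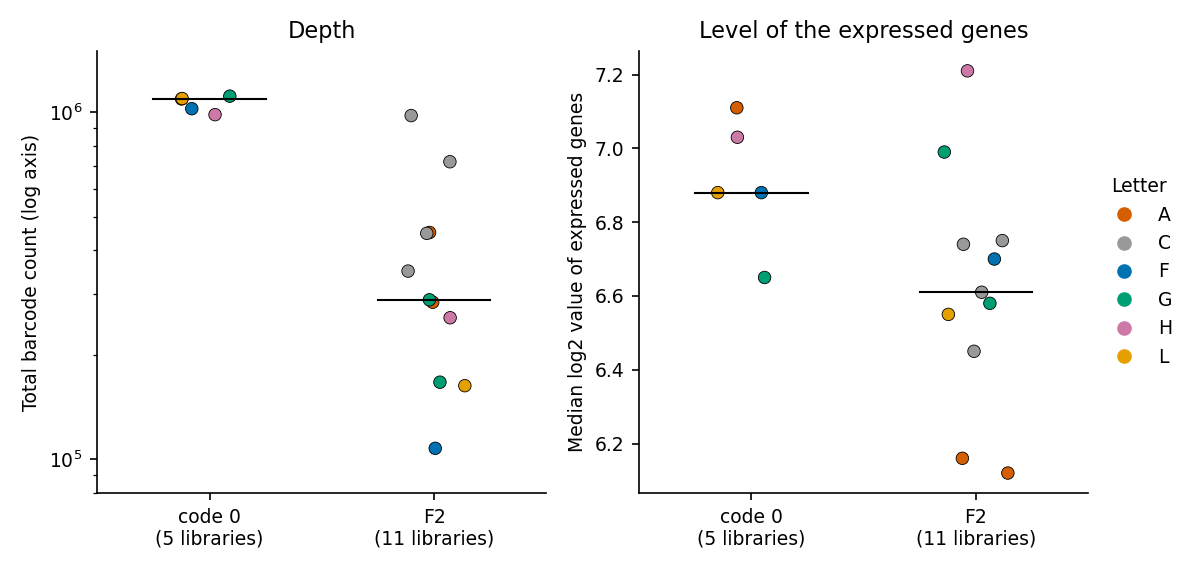
Left, total barcode count of each library on a log axis. Right, median log2 value over the 415 genes. Points are libraries coloured by letter, code 0 (5 libraries) left of F2 (11 libraries), and bars are medians. All 5 code 0 libraries hold more counts than the 11 F2 libraries, and the 2 lowest medians, 6.12 and 6.16, belong to the AF2-2797 pair of letter A.

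Few of the well-expressed genes separated the groups. With limma and Benjamini-Hochberg adjustment over all 750 genes, 31 genes (4.13%) passed an adjusted p of 0.05, of which 5 (0.667%) were higher and 26 (3.47%) lower in code 0. Among the 415 genes only Thy1 (higher) and Hk2 (lower) passed, which is 0.482%. Hk2 was among the 15 genes that averaged below 5 in code 0 and entered through their F2 values. With only the 415 genes fitted and adjusted, 0 passed. The adjusted p-values below are over all 750 genes. An unadjusted p under 0.05 was reached by 42 of the 415 genes, 36 higher and 6 lower in code 0. Of the other 335 genes 93 reached it, 14 higher and 79 lower. Below the mean of 5, 29 of 335 genes passed (8.66%), 4 higher and 25 lower, in the range where background counts of the shallower F2 libraries enter the values. The part of background in those 25 was not tested. The code 0 minus F2 difference had a median of 0.31 over the 415 genes and was above 0 in 297 of them. Without the AF2-2797 pair the median was 0.15, with 270 genes above 0. The median over all 750 genes was 0.05, or -0.02 without the pair.

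The scaling of the libraries shifts all differences together. Recentring each library on the median of the 415 genes moved their median difference to 0.02 and that of all 750 genes to -0.23. Recentring on the housekeeping genes Eif2b4 and Hdac3 moved these to 0.55 and 0.30. In the AF2-2797 pair Eif2b4 was high and Hdac3 low, as given below. Differences below are therefore to be read against the median of 0.31.

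Adding the letter of the tumour as a block asks whether code 0 and F2 differed among tumours of one origin. With that block 8 of 750 genes (1.07%) were higher and 87 (11.6%) lower in code 0. Among the 415 genes 5 were higher (Dusp1, Egr1, Itgav, Mmp9 and Thbd) and 2 lower (Hk2 and Vhl), 1.69% in all. Hk2 and Vhl each averaged below 5 in code 0 and entered the 415 through their F2 values. Thy1 missed the threshold there, with an adjusted p of 0.051. The block was not fitted to the 415 genes alone. These values are for a fixed block, meant below wherever the letter block is named. As a random block, which also uses differences between letters, the letter gave 9 calls among the 415 genes: Hk2 lower, and Dusp1, Egfr, Egr1, Itgav, Mfge8, Pecam1, Serpinh1 and Thy1 higher. The share of all 750 genes called with the random block is not given here, so these 9 calls cannot be set against it. Letters did not move alike. The median difference over the 415 genes was 1.14 in A, 0.07 in F, -0.06 in G, -0.07 in H and 0.16 in L, with 313, 218, 198, 183 and 238 genes higher in code 0 in that order. Letter A, the one whose F2 libraries are the AF2-2797 pair, had the highest of the 5 medians. A total of 32 of the 415 genes (7.71%) were higher in code 0 in all 5 letters, against 5.07% of all 750 genes, and 11 (2.65%) were lower in all 5, against 14.3%. These counts depend on the scaling, with 20 higher and 17 lower after recentring on the median of the 415 genes.

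Hk2, which encodes hexokinase 2, was lower in code 0, where its mean lay under the limit of 5 that its F2 values carried it past. Its value was 5.19 in A0, 3.07 in F0, 4.19 in G0, 3.99 in H0 and 4.05 in L0, against a lowest value of 4.88, a median of 5.92 and a highest of 7.35 in the 11 F2 libraries. In all, 4 code 0 libraries, F0, G0, H0 and L0, lay below every F2 library, and A0 lay above FF2-2809 alone. Means were 4.10 ± 0.75 log2 units in code 0 (SD, n = 5) and 6.0 ± 0.81 in F2 (SD, n = 11), a difference of -1.90 (SE 0.43, adjusted p = 0.0313) that puts the F2 mean 3.73-fold above that of code 0. The recovered counts behind these values were 49 to 189 in code 0 and 21 to 715 in F2 libraries. Hk2 was lower in code 0 within each letter: by -2.10 in A, -1.81 in F, -1.79 in G, -2.61 in H and -1.41 in L. With the letter block the difference was -1.95 (adjusted p = 0.000762), and without the AF2-2797 pair -1.61 (adjusted p = 0.0476). Over 40 alternative settings it ran between -2.42 and -1.43 and passed the threshold in 24, with adjusted p between 0.000762 and 0.805. The largest of these came with the log2 total count as a covariate, where the difference was -2.05. The total counts of the groups do not overlap, so that fit cannot tell depth from code. Hk2 also did not pass with F2 libraries of at least 250000 counts alone or with a pseudocount of 10. Leaving out F0, G0, H0, L0 or LF2-5248 singly ended the call (adjusted p 0.0505 to 0.0744), with differences of -1.95 to -1.64. Because tumour pieces were measured in bulk, fewer cells carrying a transcript and less of it per cell cannot be told apart, for Hk2 and for the genes below.

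The sequences around the starts of Hk2 and Dusp1 are shown because these genes were the pair with the smallest adjusted p under the letter block among the 415, one in each direction. They come from RefSeq (build GRCm38.p6) and run 5′ to 3′ on the strand of the gene, from 250 bases before to 50 after its start. The Hk2 window is chr6:82774405-82774704 on the minus strand, and capitals mark matches to ACGTG, the core of the element bound by hypoxia-inducible factors. Both strands were searched, and the reverse of this motif reads CACGT. There were 2 matches, beginning at positions -226 and -52, where -1 is the base before the gene start. This motif occurs in 6447 of 32851 promoter windows of the same table (19.6%). The Dusp1 window is chr17:26508423-26508722 on the minus strand, and capitals mark the single match to TGACGTCA, the cyclic AMP response element, which reads the same on both strands and does not overlap the other motif. It begins at position -143, and 588 of 32851 windows hold it (1.79%). Each window was marked for its own motif alone. The Dusp1 window also holds cacgtg, left in lower case, which contains ACGTG and its reverse, so that motif does not set Hk2 apart from Dusp1. A match describes the letters in the window and was not tested for binding.
Hk2: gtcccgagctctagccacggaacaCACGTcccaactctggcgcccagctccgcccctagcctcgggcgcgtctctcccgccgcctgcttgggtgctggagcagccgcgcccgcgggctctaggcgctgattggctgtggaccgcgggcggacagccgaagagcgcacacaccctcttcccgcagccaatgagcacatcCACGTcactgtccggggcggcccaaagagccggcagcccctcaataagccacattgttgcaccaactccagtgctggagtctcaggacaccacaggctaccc
Dusp1: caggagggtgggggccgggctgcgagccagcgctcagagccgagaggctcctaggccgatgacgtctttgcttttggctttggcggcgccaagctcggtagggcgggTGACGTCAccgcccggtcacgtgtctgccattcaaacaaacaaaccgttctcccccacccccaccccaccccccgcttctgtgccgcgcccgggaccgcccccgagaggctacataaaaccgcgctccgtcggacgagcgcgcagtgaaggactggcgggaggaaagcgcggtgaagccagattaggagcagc

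**Figure D2:**
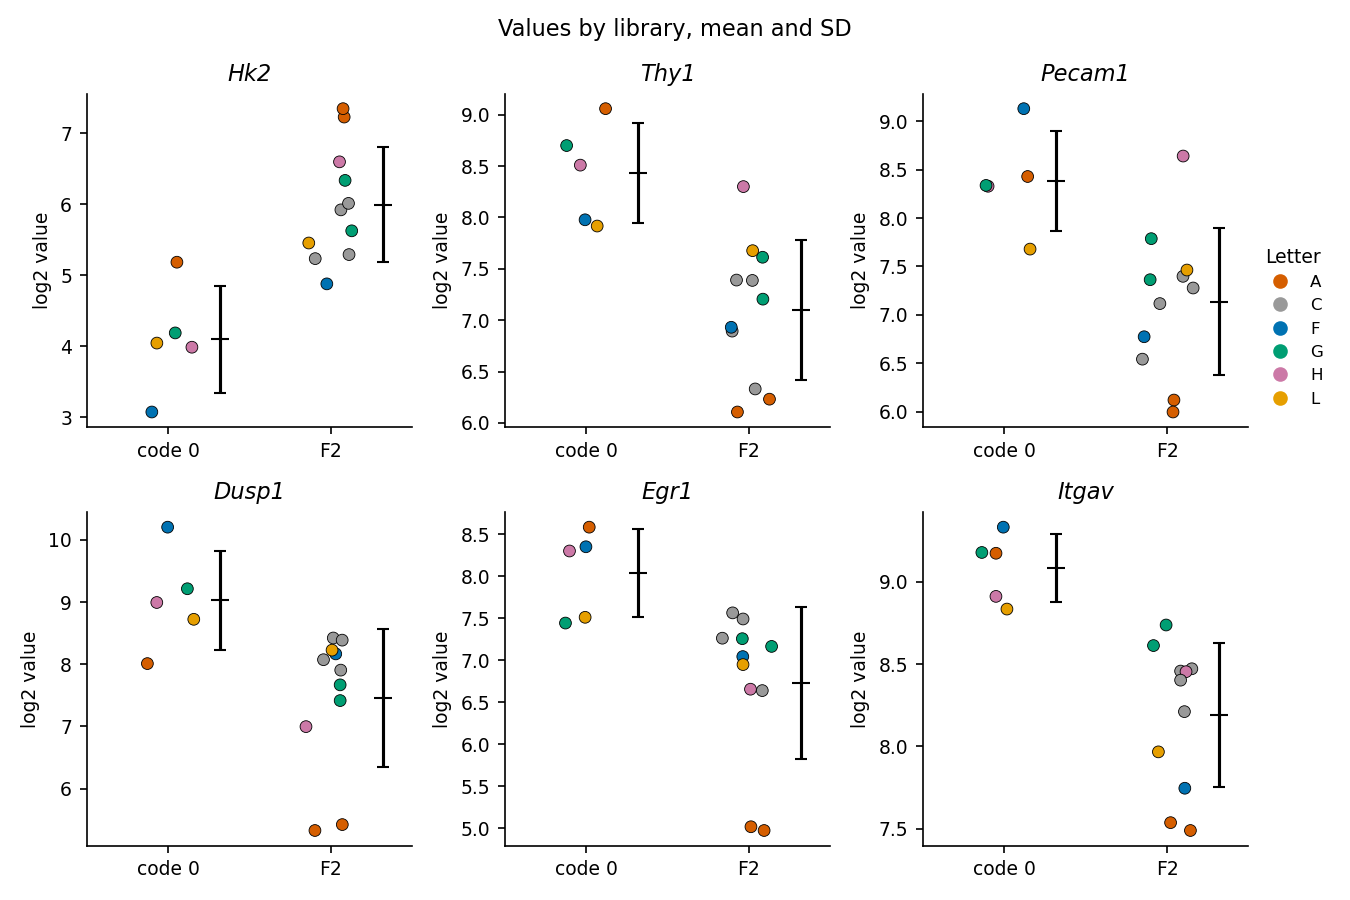
Log2 values of Hk2, Thy1, Pecam1, Dusp1, Egr1 and Itgav in each library, code 0 (5 libraries) left of F2 (11 libraries), coloured by letter, with the mean and SD beside the points. Hk2 lies lower in code 0 and the other 5 genes higher. Only Itgav has no overlap between the groups.

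Of the glycolytic genes Hk2 alone passed. Of 16 measured genes of glycolysis and glucose uptake 12 were well expressed. The median difference was -0.18 (-0.28 without the AF2-2797 pair, 0.07 after housekeeping recentring), against 0.31 over all 415 genes, and 5 of 12 lay above 0. Hk1, the isoform found in most tissues, was 6.03 ± 0.58 in code 0 and 5.50 ± 0.69 in F2, a difference of 0.52 (SE 0.37, adjusted p = 0.487). Pdk1, a kinase that holds pyruvate back from the mitochondria, differed by -0.70 (SE 0.40, adjusted p = 0.367) and was lower in code 0 in 4 of 5 letters. Ldhb, a lactate dehydrogenase subunit, differed by 0.43 (SE 0.32, adjusted p = 0.527).

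Genes of the hypoxia response went both ways. All 15 measured genes were well expressed, 10 lay above 0 and the median difference was 0.19 (0.03 without the AF2-2797 pair and -0.09 after recentring on the median of the 415). Hk2 was the one that passed. Vhl, which encodes the ubiquitin ligase subunit that marks hypoxia-inducible factors for breakdown, was 5.32, 3.87, 4.41, 4.29 and 4.41 in A0, F0, G0, H0 and L0, against 4.36 to 7.65 (median 5.02) in F2. Like Hk2, Vhl averaged below 5 in code 0 and entered through its F2 values. The 2 highest F2 values, 7.44 and 7.65, were those of the AF2-2797 pair, and F0 and H0 lay below every F2 library. Its difference was -0.94 (SE 0.50, adjusted p = 0.332), -1.07 with the letter block (adjusted p = 0.0404) and -0.47 without the pair (adjusted p = 0.399). With the block and shared code numbers averaged, Vhl no longer passed (adjusted p = 0.108), nor with a random block (adjusted p = 0.126). Loxl2, a lysyl oxidase that cross-links collagen, differed by 1.99 (SE 0.80, adjusted p = 0.205), and P4ha2, a collagen prolyl hydroxylase subunit, by 0.79 (SE 0.40, adjusted p = 0.315).

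Dusp1, which encodes a nuclear phosphatase that inactivates MAP kinases, was 8.01 in A0, 10.21 in F0, 9.22 in G0, 8.99 in H0 and 8.72 in L0, against a lowest value of 5.33, a median of 7.91 and a highest of 8.42 in F2. In all, 4 code 0 libraries lay above every F2 library, and A0 lay within their range. Means were 9.03 ± 0.80 in code 0 (SD, n = 5) and 7.46 ± 1.11 in F2 (SD, n = 11), a difference of 1.57 (SE 0.53, adjusted p = 0.105) that did not pass. With the letter block it was 1.81 (SE 0.30) and passed (adjusted p = 0.00166), and it was above 0 in 5 of 5 letters, from 0.50 in L to 2.64 in A. The lowest F2 values, 5.33 and 5.42, were those of the AF2-2797 pair, without which the difference was 1.11 (adjusted p = 0.102). Averaging libraries that share a code number left the blocked difference at 1.76 (adjusted p = 0.008). Over 40 alternatives Dusp1 stayed between 1.11 and 2.02 and passed in 4, with adjusted p from 0.00166 to 0.855.

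Egr1, an immediate early transcription factor, was 8.58 in A0, 8.35 in F0, 7.44 in G0, 8.30 in H0 and 7.51 in L0, against 4.97 to 7.56 (median 7.04) in F2. A0, F0 and H0 lay above every F2 library, and 9 of 11 F2 libraries lay below every code 0 library. The difference was 1.31 (SE 0.44, adjusted p = 0.103), 1.52 with the letter block (adjusted p = 0.033) and 0.92 without the AF2-2797 pair (adjusted p = 0.0759). With the block and shared code numbers averaged, Egr1 no longer passed (1.39, adjusted p = 0.0885). The wider group of immediate early and stress response genes lay near the median of all 415. Of 12 measured genes 10 were well expressed, 0 passed without the block and 2, Dusp1 and Egr1, passed with it. The median difference was 0.29 (0.08 without the pair), near the 0.31 of all 415 genes, with 8 of 10 above 0. Myc, a transcription factor that drives growth, differed by -1.03 (SE 0.57, adjusted p = 0.345), and Nfkbia, the inhibitor of NF-kappa-B, by 0.40 (SE 0.40, adjusted p = 0.633).

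Thy1, a surface glycoprotein of fibroblasts, T cells and some vessels in mice, was higher in code 0. Its value was 9.06 in A0, 7.98 in F0, 8.70 in G0, 8.51 in H0 and 7.92 in L0, against a lowest value of 6.11, a median of 7.20 and a highest of 8.30 in F2. A0, G0 and H0 lay above every F2 library, and HF2-2968 was the one F2 library that reached into the code 0 range. Means were 8.43 ± 0.49 (SD, n = 5) in code 0 and 7.10 ± 0.68 (SD, n = 11) in F2, a difference of 1.34 (SE 0.36, adjusted p = 0.0466), or 2.52-fold. The call ended without the AF2-2797 pair (1.13, adjusted p = 0.0746), with the letter as a fixed block (1.25, adjusted p = 0.051) and with shared code numbers averaged (1.26, adjusted p = 0.0596), and held with the letter as a random block (1.30, adjusted p = 0.022). Over 40 alternatives the difference lay between 0.97 and 1.58 and passed in 9, with adjusted p from 0.022 to 0.842. Leaving out any of the 5 code 0 libraries singly ended the call, with differences from 1.18 to 1.46 and adjusted p from 0.0657 to 0.11. So did leaving out any one of 7 F2 libraries (AF2-2797-1, AF2-2797-2, CF2-2973, CF2-2819, FF2-2809, GF2-2952 or LF2-5248), with differences from 1.24 to 1.39. The difference was 1.05 within F, 1.29 within G and 2.89 within A, but 0.21 within H and 0.24 within L. None of 25 measured T cell genes reached a mean of 5 (the highest, Il7r, had 3.90), and their summed level was 6.43 to 7.27 log2 units in code 0 and 6.59 to 8.71 in F2. Which cells carried Thy1 was not tested.

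Genes of pericytes, smooth muscle and fibroblasts were on balance above the common shift. Of 21 measured genes 16 were well expressed, 1 (Thy1) passed higher and 0 lower, 13 lay above 0 and the median difference was 0.59 (0.32 without the AF2-2797 pair). The summed level of the 16 genes was 11.72 to 12.13 in code 0, 10.91 to 11.01 in the AF2-2797 pair and 10.82 to 11.96 in the other F2 libraries. Serpinh1, the collagen chaperone HSP47, is not in this list and was named for its small p. It was 10.51 in G0 and 11.77 to 12.30 in the other 4 code 0 libraries, against 9.36 to 11.33 (median 10.54) in F2. All code 0 libraries except G0 lay above every F2 library. Its difference was 1.22 (SE 0.37, adjusted p = 0.0666), and -0.67 within letter G. It was 1.35 with the letter as a fixed block (adjusted p = 0.0564) and 1.28 as a random block, with which Serpinh1 passed (adjusted p = 0.0299). Tgfb1, the growth factor that drives matrix production, differed by 0.76 (SE 0.33, adjusted p = 0.231) and was higher in code 0 in 5 of 5 letters, and Tgfb2 differed by 0.64 (SE 0.32, adjusted p = 0.315). Tgfb2 averaged below 5 in F2 and entered through its code 0 values.

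Itgav, the integrin alpha-V subunit that binds vitronectin and activates latent TGF-beta, was the one gene of the 415 whose groups did not overlap. It was 9.17 in A0, 9.33 in F0, 9.18 in G0, 8.91 in H0 and 8.83 in L0, against 7.49 to 8.74 (median 8.40) in F2. Groups of all 750 genes were separate with code 0 above in 0.133% (the same gene) and with code 0 below in 0.533%, and of the 415 with code 0 below in 0. The difference was 0.90 (SE 0.27, adjusted p = 0.0666), 0.75 without the AF2-2797 pair (adjusted p = 0.0907) and 1.02 with the letter block, which it passed (adjusted p = 0.0232). With the block and shared code numbers averaged the adjusted p was 0.078. Mfge8, a secreted bridge between dying cells and integrins of the alpha-V family, was 9.52, 8.06, 7.18, 7.82 and 7.82 in A0, F0, G0, H0 and L0, against 6.07 to 7.48 (median 7.02) in F2. G0 was the one code 0 library within the F2 range. The difference was 1.14 (SE 0.34, adjusted p = 0.0666), with 3.34 in letter A and -0.07 in letter G. Mfge8 passed with the letter as a random block (1.19, adjusted p = 0.0323) and over all 24 libraries (1.12, adjusted p = 0.0432), but not with a fixed block (1.23, adjusted p = 0.0705).

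Pecam1, the adhesion molecule CD31 of endothelial junctions, was 8.43 in A0, 9.13 in F0, 8.34 in G0, 8.33 in H0 and 7.68 in L0, against a lowest value of 6.0, a median of 7.28 and a highest of 8.64 in F2. F0 lay above every F2 library, and 9 of 11 F2 libraries lay below every code 0 library. Means were 8.38 ± 0.52 (SD, n = 5) in code 0 and 7.13 ± 0.76 (SD, n = 11) in F2, a difference of 1.25 (SE 0.39, adjusted p = 0.0755) that did not pass. With the letter as a fixed block it did not pass either (1.14, adjusted p = 0.0776), while it passed with the letter as a random block (1.20, adjusted p = 0.0377) and over all 24 libraries (1.71, adjusted p = 0.0432). Without the AF2-2797 pair it was 1.01 (adjusted p = 0.113). The letters ran from -0.31 in H and 0.22 in L to 0.76 in G, 2.36 in F and 2.37 in A. Leaving out HF2-2968, the F2 library with the highest value, brought Pecam1 past the threshold (1.40, adjusted p = 0.0386).

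Other endothelial genes lay on the same side without passing. Of 15 measured endothelial genes 10 were well expressed, 0 passed, 5 had an unadjusted p under 0.05, and 9 lay above 0 with a median difference of 0.70 (0.74 without the AF2-2797 pair, 0.42 after recentring on the median of the 415), against 0.31 over all 415. An unadjusted p under 0.05 was reached by 42 of all 415 genes. Cdh5, the VE-cadherin of endothelial junctions, differed by 0.92 (SE 0.37, adjusted p = 0.199), Kdr, the VEGF receptor VEGFR2, by 0.81 (SE 0.37, adjusted p = 0.249), and Mmrn2, a protein of the vessel matrix, by 0.84 (SE 0.38, adjusted p = 0.248). All 3 were higher in code 0 in letters A, F and G and lower in H and L. Mmrn2 averaged below 5 in F2 and entered the 415 through its code 0 values. The summed level of the 10 genes was 9.49 to 11.07 in code 0, 9.21 to 9.24 in the AF2-2797 pair and 8.52 to 10.58 in the other F2 libraries. Thbd, the thrombomodulin of endothelium and some dendritic cells, was 5.09, 7.68, 6.92, 6.08 and 6.40 in A0, F0, G0, H0 and L0, against 3.30 to 6.80 (median 5.22) in F2. F0 and G0 lay above every F2 library. Its difference was 1.24 (SE 0.57, adjusted p = 0.251), and with the letter block 1.60 (SE 0.35, adjusted p = 0.00896), with 1.31 to 1.93 in the 5 letters. As a random block the letter gave 1.44 (adjusted p = 0.06).

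The secreted factors that act on vessels showed a like spread. Of 11 measured angiogenic ligands 9 were well expressed, 0 passed, and 8 lay above 0 with a median difference of 0.54 (0.34 without the pair). Angpt1, the ligand of the TIE2 receptor that stabilises vessels, differed by 1.40 (SE 0.77, adjusted p = 0.345) and was higher in code 0 in 5 of 5 letters, from 0.47 in L to 3.30 in H. Vegfc, which acts on lymphatic vessels, differed by 0.95 (SE 0.60, adjusted p = 0.417), and Pdgfb, which recruits pericytes, by 0.75 (SE 0.43, adjusted p = 0.367). Adm, the vasodilator adrenomedullin, ranged from 5.44 to 7.14 in code 0 and from 2.66 to 8.32 in F2, and its difference was 1.09 (SE 0.79, adjusted p = 0.503). Its F2 mean lay below 5, so it entered through its code 0 values.

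**Figure D3:**
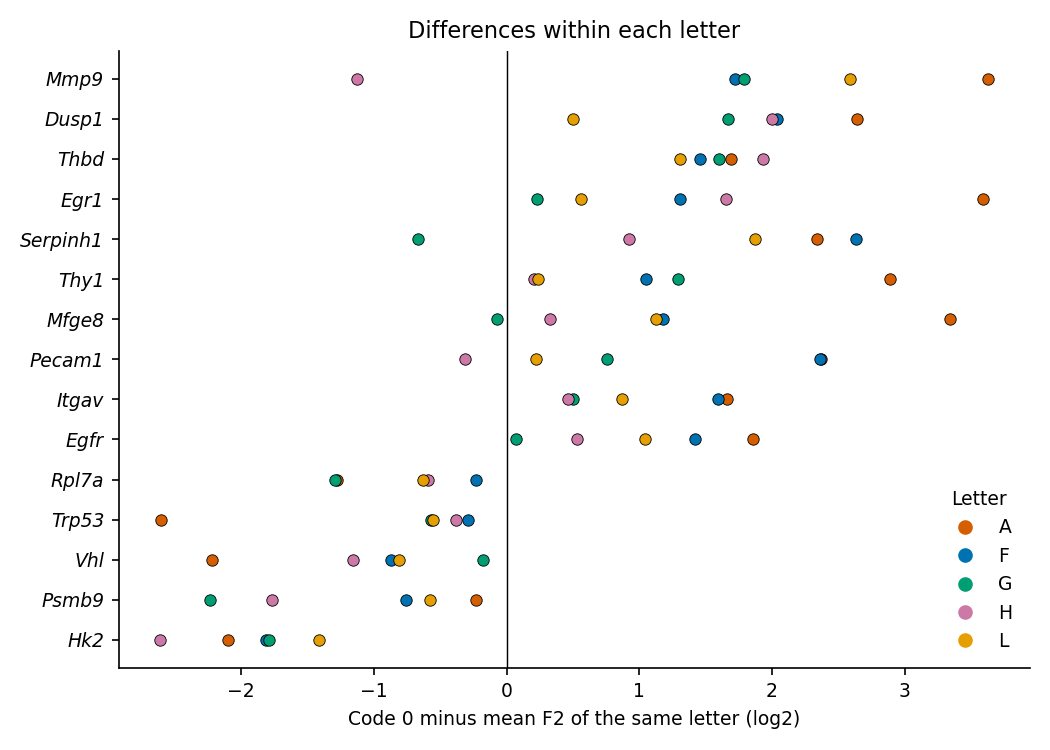
Code 0 minus the mean of the F2 libraries of the same letter (log2) for 15 genes, 1 point for each of the letters A, F, G, H and L, with the zero line. Genes run down the page from the highest to the lowest difference in the fit with the letter block. Hk2 is below 0 in all 5 letters, between -2.61 and -1.41, and Dusp1 and Thbd are above 0 in all 5.

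Signalling genes of the Wnt, Notch, Hedgehog and TGF-beta pathways were on balance above the median difference of the 415 genes. Of 40 measured genes 21 were well expressed, 0 passed, and 18 lay above 0 with a median difference of 0.54 (0.56 without the AF2-2797 pair, 0.26 after recentring on the median of the 415). Wnt5a, a ligand of non-canonical Wnt signalling, was 7.77, 9.62, 7.06, 6.45 and 7.53 in A0, F0, G0, H0 and L0, against 3.95 to 7.65 (median 6.37) in F2. The difference was 1.61 (SE 0.62, adjusted p = 0.178), and the 5 letters ranged from 0.21 in H to 5.67 in F. Ctnnb1, which encodes beta-catenin, differed by 0.84 (SE 0.33, adjusted p = 0.192), and Tgfbr1, a TGF-beta receptor, by 1.05 (SE 0.45, adjusted p = 0.231). Among 20 well-expressed genes of MAPK and PI3K signalling (26 measured) 0 passed without the block and 1, Dusp1, passed with it, and the median was 0.32. Pik3cd, a catalytic PI3K subunit, differed by 0.92 (SE 0.51, adjusted p = 0.345), Map3k5, the stress kinase ASK1, by 0.73 (SE 0.40, adjusted p = 0.34), and Pik3r1, a regulatory PI3K subunit, by 0.66 (SE 0.36, adjusted p = 0.339).

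Genes of epithelial cells were few in the set. Of 11 measured 3 were well expressed and 0 passed. Their median difference was 0.13 (0.40 without the AF2-2797 pair). The epithelial adhesion genes Epcam and Cdh1, looked up as markers of the labelled tissue, had means of 4.2 and 2.17 and so fell below the limit, and Epcam ranged from 1.05 to 10.96 over the code 0 libraries. Egfr, the receptor of epidermal growth factor, was 6.24, 5.81, 5.48, 5.72 and 6.41 in A0, F0, G0, H0 and L0, against 4.33 to 5.77 (median 5.18) in F2, and 10 of 11 F2 libraries lay below every code 0 library. Its difference was 0.89 (SE 0.29, adjusted p = 0.0916), 0.98 with the letter as a fixed block (adjusted p = 0.0508) and 0.94 as a random block, with which it passed (adjusted p = 0.0323). Gata3, a transcription factor of luminal mammary cells, differed by 0.13 (SE 0.29, adjusted p = 0.835) and by -0.16 after recentring on the median of the 415.

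Proliferation and DNA repair genes lay on balance below the median difference of the 415 genes. Of 24 measured genes of mitosis and proliferation 21 were well expressed, 0 passed, and 7 lay above 0 with a median of -0.20 (-0.02 without the AF2-2797 pair, 0.05 after housekeeping recentring). Cdc20, an activator of the anaphase-promoting complex, was 6.99 ± 0.41 in code 0 and 7.66 ± 0.43 in F2, a difference of -0.67 (SE 0.28, adjusted p = 0.212). Birc5, the mitotic protein survivin, differed by -0.84 (SE 0.43, adjusted p = 0.315), of which letter A showed -2.34 and the other letters -0.34 to 0.22. The G1 cyclin genes lay the other way, with Ccnd1 at 0.81 (SE 0.39, adjusted p = 0.278) and higher in code 0 in 5 of 5 letters, and Ccnd3 at 0.55 (SE 0.29, adjusted p = 0.323).

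Of 17 measured genes of DNA repair and p53 12 were well expressed, 0 passed, and 2 lay above 0 with a median of -0.47 (-0.18 without the AF2-2797 pair). Trp53, which encodes p53, differed by -0.89 (SE 0.46, adjusted p = 0.321), and Brca2, a protein of DNA break repair by recombination, by -0.99 (SE 0.44, adjusted p = 0.244). Both were lower in code 0 in 5 of 5 letters. The AF2-2797 pair was high in this group: the summed level of the 12 genes was 9.53 to 10.12 in code 0, 11.45 to 11.60 in the pair and 9.69 to 10.78 in the other F2 libraries. The summed level of the 2 well-expressed housekeeping genes was 6.68 to 7.03 in code 0, 8.62 to 8.69 in the pair and 6.64 to 7.55 elsewhere in F2. Only Eif2b4 was high in the pair (8.54 to 8.62, against 5.14 to 6.66 in the other F2 libraries). Hdac3 was low there (4.22 to 4.46, against 5.48 to 6.44). The part of these 2 genes in the results was not tested. Rpl7a, a protein of the large ribosomal subunit, is in neither list and was named for its small p. It was 12.34, 12.43, 11.73, 12.14 and 12.42 in A0, F0, G0, H0 and L0, against 12.22 to 13.86 (median 13.06) in F2. It was lower in code 0 in 5 of 5 letters, with a difference of -0.85 (SE 0.30, adjusted p = 0.131). Among the 11 genes lower in code 0 in all 5 letters were Brca2, H2-M3, Hk2, Psmb9, Rpl7a, Trp53 and Vhl, together with Cdk2, Elob and Srp54a, chosen here once their values were known.

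**Figure D4:**
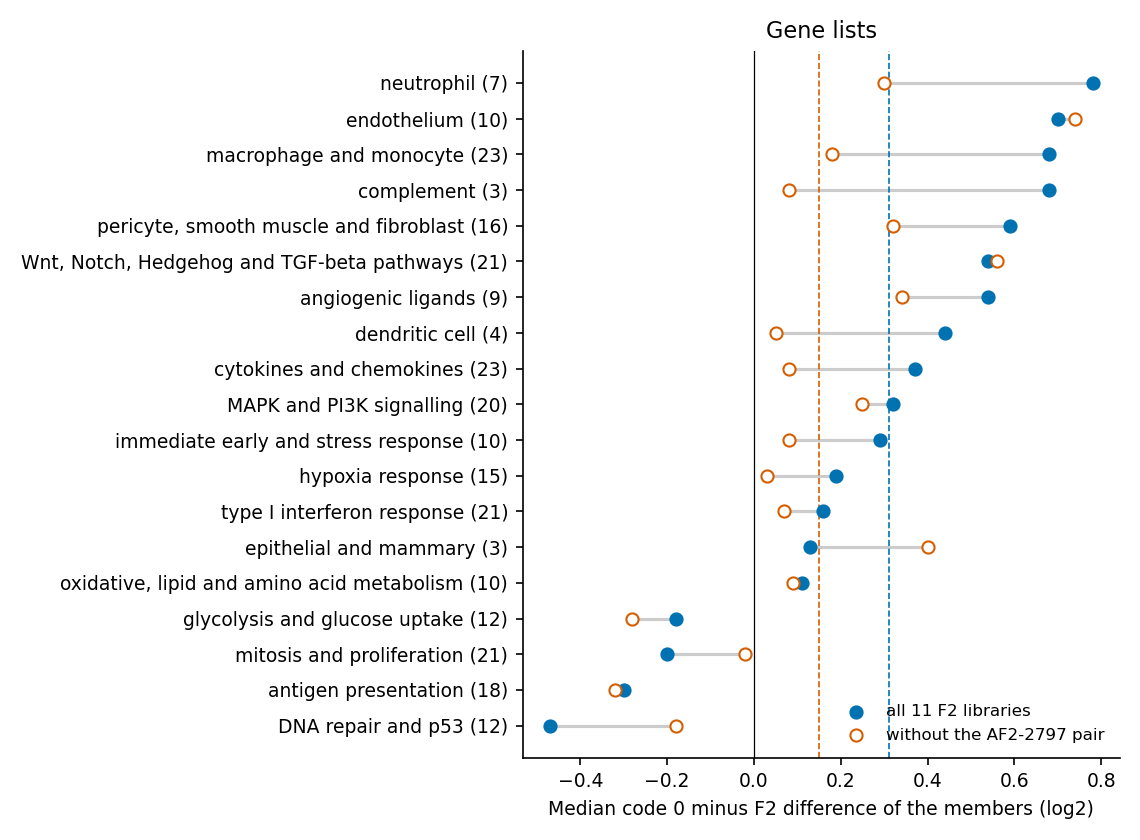
Median code 0 minus F2 difference (log2) of each gene list, with the number of well-expressed genes in brackets. Filled points use the 11 F2 libraries and open points leave out the AF2-2797 pair, and the dashed lines are the same medians over all 415 genes, 0.31 and 0.15. Endothelium stays near 0.70 with and without the pair, while macrophage and monocyte genes lie at 0.68 with it and 0.18 without it.

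Myeloid genes lay above the median difference of the 415 genes with the AF2-2797 pair and nearer to it without. Of 25 measured macrophage and monocyte genes 23 were well expressed, 0 passed, and 22 lay above 0 with a median of 0.68, which became 0.18 without the pair, against 0.15 over all 415. Their summed level was 14.12 to 16.27 in code 0, 12.47 to 12.52 in the pair and 13.67 to 16.18 in the other F2 libraries, so the pair was below all other libraries and the rest overlapped. Cd163, a haemoglobin scavenger receptor of macrophages, differed by 1.35 (SE 0.61, adjusted p = 0.248), and Axl, a receptor for dying cells, by 0.82 (SE 0.49, adjusted p = 0.393). Without the pair these were 1.20 for Cd163 and 0.43 for Axl. Cd163 averaged below 5 in F2 and entered the 415 through its code 0 values. The 7 well-expressed neutrophil genes (15 measured) had a median of 0.78 (0.30 without the pair), and 0 passed. Mmp9, a matrix-degrading gelatinase of neutrophils and other cells, was 6.77, 7.38, 9.20, 6.57 and 6.78 in A0, F0, G0, H0 and L0, against 3.03 to 8.10 (median 7.19) in F2. Its difference was 1.05 (SE 0.85, adjusted p = 0.557), 0.35 without the pair (adjusted p = 0.848) and 1.84 with the letter block, which it passed (adjusted p = 0.0293), with -1.13 within H. With the block and shared code numbers averaged Mmp9 no longer passed (1.73, adjusted p = 0.075), nor with a random block (1.43, adjusted p = 0.207). Cxcl5, a neutrophil-attracting chemokine, differed by 1.18 (SE 0.84, adjusted p = 0.487), and Cxcl1, another, was higher in code 0 in 5 of 5 letters at 0.81 (SE 0.81, adjusted p = 0.632). Without the pair these were 0.47 for Cxcl5 and 0.50 for Cxcl1.

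Complement, dendritic and cytokine genes had medians of 0.68, 0.44 and 0.37 over 3, 4 and 23 well-expressed genes (5, 13 and 49 measured), and 0.08, 0.05 and 0.08 without the pair. None of them passed, apart from Thbd of the dendritic list, which passed with the letter block as given above. Ccl7, a monocyte-attracting chemokine, was 7.90 ± 1.46 in code 0 and 6.53 ± 0.84 in F2, a difference of 1.37 (SE 0.54, adjusted p = 0.192), with -1.03 within letter G and 0.98 to 2.97 in the other letters. Ccl2, the main monocyte attractant, differed by 1.31 (SE 0.87, adjusted p = 0.453), with the letters between -2.10 in G and 5.0 in F.

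Antigen presentation lay on the low side. Of 25 measured genes 18 were well expressed, 0 passed, and 5 lay above 0 with a median of -0.30 (-0.32 without the AF2-2797 pair, -0.05 after housekeeping recentring). Psmb9, an immunoproteasome subunit, was 8.49, 6.52, 5.71, 7.32 and 7.64 in A0, F0, G0, H0 and L0, against 7.21 to 9.09 (median 8.22) in F2. F0 and G0 lay below every F2 library, and the other code 0 libraries lay among them. Its difference was -0.96 (SE 0.43, adjusted p = 0.244), lower in code 0 in 5 of 5 letters. H2-M3, a class I molecule that presents formylated peptides, differed by -0.56 (SE 0.29, adjusted p = 0.327) and also was lower in each letter, and Psmb5, a subunit of the standard proteasome, differed by -0.58 (SE 0.32, adjusted p = 0.351). Ctss, the protease cathepsin S of class II loading, differed by 1.23 (SE 0.77, adjusted p = 0.417), with 6.66 to 12.21 in F2. Without the AF2-2797 pair the Ctss difference was 0.56 (adjusted p = 0.647).

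Type I interferon genes lay slightly below the median difference of all well-expressed genes. Of 26 measured 21 were well expressed, with 0 passing, 17 above 0 and a median of 0.16 (0.07 without the pair). Tmem173, which encodes the DNA sensor adaptor STING, differed by 0.86 (SE 0.37, adjusted p = 0.231), Stat2, a transcription factor of interferon signalling, by 0.89 (SE 0.61, adjusted p = 0.467), and Rsad2, the antiviral protein viperin, by 0.73 (SE 0.47, adjusted p = 0.432). Tmem173, Stat2 and Rsad2 had their lowest F2 values in the AF2-2797 pair. Stat2 was 3.30 to 3.36 there and 5.70 to 7.56 in the other F2 libraries. Ifnar1, a chain of the interferon receptor, differed by 0.36 (SE 0.28, adjusted p = 0.543). Oxidative, lipid and amino acid metabolism held 10 well-expressed genes of 16, with 0 passing and a median of 0.11. Glul, which makes glutamine, differed by 0.26 (SE 0.31, adjusted p = 0.666), higher in 5 of 5 letters but -0.02 in the fit recentred on the median of the 415.

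Markers of further cell types were scarce at this level. None of 6 mast cell, 15 NK and cytotoxic or 2 muscle and nerve genes measured reached a mean of 5. Single genes remained of B and plasma cells (Prdm1, a plasma cell regulator, difference -0.10, SE 0.46) and of adipose tissue (Cd36, a fatty acid transporter, -0.07, SE 0.36). Pf4, a platelet chemokine, differed by -0.63 (SE 0.40, adjusted p = 0.421) and Itgb3, an integrin subunit of platelets and other cells, by 0.48 (SE 0.40, adjusted p = 0.572). Of the housekeeping genes, Eif2b4 differed by -0.66 (SE 0.50, adjusted p = 0.531) and Hdac3 by 0.17 (SE 0.36, adjusted p = 0.825), or by -0.13 without the AF2-2797 pair and -0.12 and -0.18 under median and quantile scaling.

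Whether the code 0 difference itself differed between inflamed and desert tumours was tested by an interaction term over 13 libraries. It called 0 of 750 genes in limma, with 22 at an unadjusted p under 0.05, of which 9 were among the 415, and a smallest adjusted p of 0.937. With infiltrate class as a covariate the same number of well-expressed genes, 2, passed, and the Hk2 difference was -1.80 (adjusted p = 0.0219). Among inflamed libraries alone the Hk2 difference was -2.42 (adjusted p = 0.109).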

How the data were processed

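Total RNA was extracted with Trizol and labelled by NanoString bar coding, per the labels. The authors deposited 1 table on the log2 scale. It has 784 entries, of which 34 hold no value (14 control probes and 20 genes) and 750 are genes, with values from -2.97 to 14.87. How they were scaled or corrected for background is not given in the sources used here. All values, raised from log2, were whole multiples of 1 factor per library within 0.001 (100%), which gave the counts and totals printed here. Genes are named by the deposited symbols.

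A 2-sided limma fit (version 3.58.1, lmFit and eBayes, R 4.3.3) compared code 0 with F2 on the deposited log2 values of 16 libraries, with Benjamini-Hochberg adjustment over the 750 genes. Differences are code 0 minus F2 in log2 units with their SE. The script was tested on simulated data. The members and the 27 gene lists (239 of the 415 genes are in a list) were chosen with earlier results of these data known. Named genes are those past the threshold with the largest differences (at most 12 in each direction), the 5 smallest p in a direction with fewer than 5 such genes, Hk2, Pecam1 and Dusp1, up to 4 members with the smallest p of each list, and the 3 genes on each side of the limit of 5. Some genes that this rule takes are not reported here. Lists are described by counts and medians.

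The letter pairs code 0 with F2 through the labels, which link the code to tumour origin. Deviations from the group means of same-letter libraries correlated across genes by 0.31 in A, -0.13 in F, -0.26 in G, 0.65 in H and -0.20 in L, so only A and H deviated together. The block is therefore given beside results whose call it changes. Alternatives covered the block, left-out letters or libraries, class, total count and housekeeping or median or quantile scaling, voom weights on recovered counts, filters and a pseudocount of 10. Leaving out the AF2-2797 pair, F2 libraries of at least 250000 counts alone, and the block with shared code numbers averaged were chosen after seeing the data.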

Additional observations from a re-analysis of the deposited data

Results flagged for a closer look

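Among 75 named genes, the 5 code 0 libraries were searched for a library far from the other 4, which chance finds in about 1 of 20 groups. There was 1 case. Tyms, the thymidylate synthase that makes DNA precursors, was 3.71 in A0, against 4.40 to 4.64 in the other code 0 libraries, a gap of 0.747 of the range.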

How the results depend on the processing

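The count of the 415 genes past the threshold was 2 with infiltrate class as a covariate, voom weights, recentring on their median or a trended variance. It was 7 with the letter as a fixed and 9 as a random block, 6 over all 24 libraries, 3 with the block and shared numbers averaged, and 1 with letter A or C left out, F2 averaged by letter, shared numbers averaged or the AF2-2797 pair left out. It was 0 with letter F, G, H or L left out, inflamed libraries alone, the total count as a covariate, housekeeping or quantile scaling, a pseudocount of 10, only these genes fitted, or F2 libraries of at least 250000 counts, and 0 to 3 with 1 library left out. A limit of 4 gave 5 genes and of 6 gave 1. Genes higher in all 5 letters numbered 20 after recentring on the median, 18 after quantile scaling, 54 over all 24 libraries and 21 at a limit of 6. Genes lower in all 5 numbered 17 after recentring on the median, and 6 with housekeeping scaling or a limit of 6. The cause was not tested, except that left-out libraries and limits change what enters.

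Differences of named genes kept their direction and side of the threshold in 2898 fits, lost the call in 47, gained it in 21 and turned sign in 34, all 34 in genes not called. Single libraries left out gave -0.02 to 0.89 for Cd1d1, -0.31 to 0.22 for Cd36 and -0.32 to 0.34 for Prdm1. With the fixed block Cd36 was 0.14, with the random block 0.03, with averaged numbers and the block 0.17, with F2 averaged by letter 0.02, and without letters C, F and H 0.12, 0.03 and 0.11. Without letter A Hdac3 was -0.10, without G Cd1d1 was -0.07 and Gata3 -0.05, without H Prdm1 was 0.01 and without L 0.33. In inflamed libraries Cd36 was 0.10, Gata3 -0.28, Itgb3 -0.43, Mmrn2 -0.15 and Pf4 0.17. Recentring on the median gave Gata3 -0.16, Glul -0.02 and Hdac3 -0.12. Quantile scaling gave Cd86 -0.05, Gata3 -0.14 and Hdac3 -0.18. Housekeeping scaling gave Cd36 0.18 and Prdm1 0.15. The total count as a covariate gave Prdm1 0.35, the deeper F2 libraries Prdm1 0.04, and leaving out the AF2-2797 pair Hdac3 -0.13.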
